A study of Mus musculus with 6 samples.

Results

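The thick ascending limb of the loop of Henle was followed through 10 genes that mark it or work in it: Umod, Egf, Slc12a1, Kcnj1, Cldn10, Cldn16, Cldn19, Bst1, Ppp1r1a and Ptger3. They were found by symbol, and each had 1 row among the 23282 rows of every library. RNA of whole kidney was measured in 3 C57BL/6 mice (B6) and 3 BALB/c mice (BALBc in the labels), which are inbred laboratory strains, with 1 library per mouse. The study asked how the strains differ in innate lymphoid cells of the kidney, and these libraries profile the organ as a whole. The labels name the strain and the tissue. No treatment, allele, age or sex is given in the sources used here. The libraries were made with a QuantSeq kit, which reads mainly the 3′ ends of polyadenylated transcripts. Values are CPM, read counts scaled to the size of the library, and folds are B6 over BALB/c on the log2(CPM + 1) scale, so a negative fold means a lower level in B6.

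The thick ascending limb takes up sodium, potassium and chloride from the tubule fluid through the cotransporter NKCC2, encoded by Slc12a1, while the apical potassium channel ROMK, encoded by Kcnj1, returns potassium to the lumen. Chloride leaves the cell on the other side through chloride channels with their subunit barttin, and the resulting voltage drives sodium, calcium and magnesium between the cells through pores made of claudins. The segment hardly lets water through. It secretes uromodulin, the most abundant protein of normal urine, and is a main source of the epidermal growth factor found there.

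Cldn10 is transcribed from 2 starts that give different first exons, and a count per symbol adds them up. In the GENCODE M21 annotation of GRCm38, 2 transcripts of the upstream start encode claudin-10a, known mainly from the proximal tubule, and 1 transcript whose start lies 66824 bases further on encodes claudin-10b, the form of the thick ascending limb. Both forms share the last exon, where their annotated ends lie up to 965 bases apart. The windows before the RefSeq starts differ in base composition, with 36.0% G and C in the upstream window and 72.4% in the downstream one. The median was 52.4% over all 32851 windows. The RefSeq starts of Cldn10 differ from the GENCODE ones. The downstream window, 118854700 to 118854949, holds the GENCODE start of claudin-10b at 118854732, so most of it lies after that start. Sequences of the B6 reference (RefSeq, GRCm38.p6) follow for the claudin-10a start, for Egf and for Umod, the gene that defines the segment. Cldn10 and Egf differed between the strains, but the counts do not show which form of Cldn10 did. Each sequence is the 250 bases before the RefSeq start, 5′ to 3′ on the strand of the gene. Capitals mark GTTAAT or its reverse complement ATTAAC, a part of the site that HNF1 factors bind and not the whole site.
Cldn10, claudin-10a start, chr14:118787621-118787870, plus strand: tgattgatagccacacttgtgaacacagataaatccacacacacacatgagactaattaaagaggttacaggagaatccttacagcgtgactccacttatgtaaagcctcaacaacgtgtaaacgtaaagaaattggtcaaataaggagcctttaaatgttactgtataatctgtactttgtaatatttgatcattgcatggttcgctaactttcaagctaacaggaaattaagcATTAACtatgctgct
Egf, chr3:129755323-129755572, minus strand: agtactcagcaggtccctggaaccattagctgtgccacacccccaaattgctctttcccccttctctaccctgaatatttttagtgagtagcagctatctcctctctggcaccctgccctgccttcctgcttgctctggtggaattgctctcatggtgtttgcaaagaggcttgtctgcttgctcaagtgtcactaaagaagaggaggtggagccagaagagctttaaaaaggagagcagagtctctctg
Umod, chr7:119479263-119479512, minus strand: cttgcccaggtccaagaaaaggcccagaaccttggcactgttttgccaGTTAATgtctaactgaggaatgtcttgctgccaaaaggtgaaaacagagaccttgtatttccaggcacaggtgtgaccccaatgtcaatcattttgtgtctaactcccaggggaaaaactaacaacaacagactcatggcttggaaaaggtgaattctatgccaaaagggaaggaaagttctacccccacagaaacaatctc

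Counted from its first base, the partial HNF1 motif stood 15 bases before the upstream RefSeq start of Cldn10 and 202 bases before that of Umod. Searched on both strands, it occurred in 2 of the 11 windows found for 8 members and in 6.43% of all 32851 windows. The 11 windows are not all separate upstream regions, since those of Cldn19 overlap each other. An Egf window and the Kcnj1 window lie inside the annotated genes. Windows of Slc12a1, Cldn19 and Umod run past the GENCODE start of the gene. The element TCAAGGTCA of estrogen-related receptors was in 0 of the 11 windows and in 0.387% of all windows, and TATAAA was in 0 of the 11 and in 12.4% of all. None of the 3 motifs contains another. A match describes the letters of the window only.

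The libraries held between 8310798 and 10416332 reads. The members had between 27 reads (Bst1, B6 replicate 3) and 23278 reads (Umod, B6 replicate 2) in a library, so the precision differs widely between them. Umod and Slc12a1, the defining markers, were present in every library and summed to 2989 to 4213 CPM in B6 and 3159 to 3460 CPM in BALB/c. B6 replicates 2 and 3 stood apart from each other in genes of the medulla and of the collecting duct. The summed level of 6 principal cell markers, genes of the collecting duct, was 443.1, 728.0 and 317.2 CPM in B6 replicates 1, 2 and 3, against 449.2, 422.5 and 498.6 CPM in the BALB/c libraries. The 7 proximal tubule markers summed to 17307, 13620 and 19161 CPM in the B6 libraries, against 16380, 15370 and 14272 CPM in BALB/c. A single gene, Kap, carried most of that sum, and without it the other 6 markers summed to 4805, 4499.9 and 4759 CPM in B6, against 4577, 4434 and 4922 CPM in BALB/c. The other 5 principal cell markers, without Aqp2, summed to 203.4, 230.3 and 179.0 CPM in B6, against 178.7, 196.7 and 196.6 CPM in BALB/c. None of the markers of these lists was at 0 in any library. The part of such differences between libraries in the results below was not tested.

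Of the 10 members, 1 was higher and 2 were lower in B6, and 7 did not pass the test (limma, Benjamini-Hochberg adjusted p under 0.05 over 13317 genes). All 10 had passed the filter on low values. Over all genes 9.09% were called, with 656 genes (4.93%) higher and 555 genes (4.17%) lower in B6. The libraries of the strains did not overlap in 3 of the 10 members, the same 3, against 25.4% of all genes tested. The median log2 fold was 0.08 over the members and -0.002 over all genes, with 5 members on either side of 0. In whole kidney, fewer cells of a type and less RNA per cell cannot be told apart, and BALB/c reads were aligned to the B6 reference, whose effect on these genes was not tested.

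**Figure D1:**
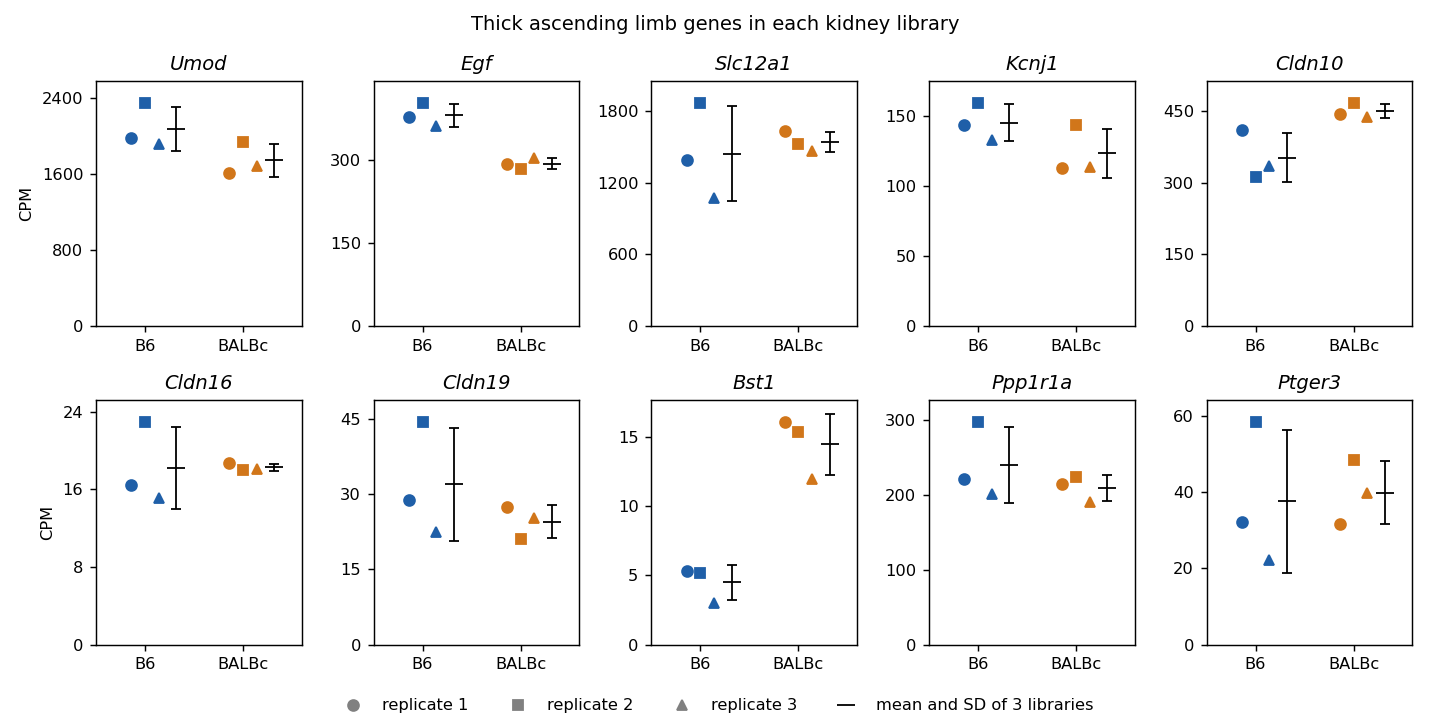
CPM of each member (vertical axis, starting at 0) in the 3 B6 libraries (blue) and the 3 BALB/c libraries (orange), with symbols for replicates and the mean and SD of each strain in black. The strains are apart in Egf, Cldn10 and Bst1, and B6 replicate 2 is the highest B6 library in 8 of the 10 genes.

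Of the genes for secreted proteins, Egf, which encodes epidermal growth factor, was higher in B6. Egf (chromosome 3, 129677565 to 129755316, GRCm38), whose product stimulates magnesium uptake in the next segment and growth of tubule cells, had 377.5, 401.5 and 360.8 CPM in the B6 libraries, against 291.2, 283.3 and 302.6 CPM in the BALB/c libraries. Every B6 library was above every BALB/c library. Means ± SD were 379.9 ± 20.5 CPM for B6 and 292.4 ± 9.72 CPM for BALB/c (n = 3 each), a log2 fold of 0.38 ± 0.09 (SE, adjusted p = 0.00745 in limma). The call held with any 1 library left out, where the adjusted p from limma was at most 0.0454. A variance prior with no trend along the expression level ended it (adjusted p = 0.157 in limma). Markers of the distal convoluted tubule summed to 1055 to 1242 CPM in B6, against 868.2 to 931.9 CPM in BALB/c. Of these 5 markers, 3 were called higher and 1 lower in B6, and the part of that segment in the Egf result was not tested. Exons of Egf overlap those of the antisense genes 6330410L21Rik and Gm42697, and the bases shared with 6330410L21Rik lie at least 77252 bases from the 3′ end of Egf, the end that QuantSeq reads.

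Umod (chromosome 7, 119462711 to 119479282), which encodes uromodulin, had 1976, 2347 and 1914 CPM in the B6 libraries, against 1608, 1936.5 and 1689 CPM in the BALB/c libraries. The strains overlapped, since BALB/c replicate 2 lay above B6 replicate 3. The log2 fold was 0.25 ± 0.10 (SE, n = 3 each, adjusted p = 0.131 in limma), with a 95% interval of 0.04 to 0.46 that is not adjusted for the number of genes. Without B6 replicate 2 it was 0.16 (adjusted p = 0.310 in limma). An annotated antisense gene, Gm44588, shares exon bases with Umod that begin 110 bases from its 3′ end, and reads of the pair cannot be told apart if strand was not used. The difference between the folds of Umod and Egf was -0.12 (exact two-sided permutation test, p = 0.4, adjusted p = 0.4 over 6 pairs), and -0.02 without BALB/c replicate 2. With 3 libraries against 3 this test cannot go below 0.1.

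The genes of apical salt uptake did not pass the test with all libraries, which leaves a difference open. Slc12a1 (chromosome 2, 125152505 to 125230002), the target of loop diuretics such as furosemide, had 1394, 1867 and 1075 CPM in the B6 libraries, against 1635, 1523 and 1469 CPM in the BALB/c libraries. The B6 libraries spanned a 1.74-fold range and enclosed the BALB/c values, which spanned 1.11-fold. The log2 fold was -0.13 ± 0.13 (SE, adjusted p = 0.638 in limma) with a 95% interval of -0.40 to 0.14. Leaving out B6 replicate 2 or B6 replicate 3 moved this value in opposite directions. Without B6 replicate 2 the log2 fold was -0.33 and passed the test (adjusted p = 0.0255 in limma), and without B6 replicate 3 it was 0.07 (adjusted p = 0.801 in limma).

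Kcnj1 (chromosome 9, 32372493 to 32399197), the ROMK channel, had 143.2, 158.9 and 132.6 CPM in the B6 libraries, against 112.5, 143.5 and 113.3 CPM in the BALB/c libraries. Of the BALB/c libraries, replicate 2 lay within the B6 range and the others below it. The log2 fold was 0.24 ± 0.11 (SE, adjusted p = 0.230 in limma), with a 95% interval of 0.001 to 0.476 before adjustment. The ratio of Slc12a1 to Kcnj1 differed by -0.37 on the log2 scale (exact permutation p = 0.2, adjusted p = 0.3), and that of Umod to Slc12a1 by 0.38 (exact permutation p = 0.2, adjusted p = 0.3). Without B6 replicate 3 these differences were -0.23 and 0.24. Whole kidney reads do not show their segment, and the part of other segments in Kcnj1 or its ratio to Slc12a1 was not tested.

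Among the claudins, Cldn10 was lower in B6, and Cldn16 and Cldn19 did not pass the test. That alone does not show that their folds differ from the fold of Cldn10. Cldn10 (chromosome 14, 118787908 to 118875489), which as claudin-10b forms the sodium pore of the segment, had 410.0, 311.6 and 335.4 CPM in the B6 libraries, against 444.7, 466.2 and 437.7 CPM in the BALB/c libraries. All B6 values were below all BALB/c values. Means ± SD were 352.3 ± 51.4 CPM for B6 and 449.5 ± 14.9 CPM for BALB/c (n = 3 each), a log2 fold of -0.36 ± 0.10 (SE, adjusted p = 0.0224 in limma). The call ended without B6 replicate 2 or 3 and without BALB/c replicate 1 or 2, with limma adjusted p up to 0.0997. It also ended with no filter beyond 1 read (adjusted p = 0.0804 in limma) or under a prior that had no trend (adjusted p = 0.248 in limma). Since reads of claudin-10a and claudin-10b are added up, the files do not show which form differed.

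Cldn16 (chromosome 16, 26463135 to 26482765) and Cldn19 (chromosome 4, 119255414 to 119262438) encode the claudins that form the pathway for magnesium and calcium, and loss of either causes renal magnesium wasting in people. Cldn16 had 16.5, 23.0 and 15.1 CPM in the B6 libraries, against 18.7, 18.0 and 18.1 CPM in the BALB/c libraries. Its log2 fold was -0.03 (adjusted p = 0.963 in limma), with a 95% interval of -0.45 to 0.40. The direction turned without B6 replicate 1 (0.03) or replicate 3 (0.09), and without B6 replicate 2 the fold was -0.20. The BALB/c libraries lay close together, between the lower and the upper B6 values.

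Cldn19 had 28.8, 44.4 and 22.5 CPM in the B6 libraries, against 27.4, 21.0 and 25.2 CPM in the BALB/c libraries. The strains overlapped, and B6 replicate 2 stood above the rest. Exons of Cldn19 overlap those of Gm12927, 5463 bases from its 3′ end. Its log2 fold was 0.32 ± 0.20 (SE, adjusted p = 0.397 in limma), with a 95% interval of -0.10 to 0.74, and without B6 replicate 2 it was 0.06. The ratios of Cldn10 to Cldn19 and of Cldn16 to Cldn19 did not overlap between the strains, with differences of -0.68 and -0.35 on the log2 scale. Both reached the smallest p that 3 libraries against 3 allow, 0.1 in the exact permutation test, with an adjusted p of 0.3 over the 6 pairs. The ratio of Cldn10 to Cldn16 differed by -0.33 (exact permutation p = 0.3, adjusted p = 0.36). Without B6 replicate 2 the difference was -0.34 for Cldn10 to Cldn19 and -0.08 for Cldn10 to Cldn16.

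Bst1, which was lower in B6, had the largest log2 fold of the 10 genes. It encodes CD157, an enzyme anchored to the cell surface that makes cyclic ADP-ribose from NAD and is also known from bone marrow stromal and myeloid cells. Bst1 (chromosome 5, 43818885 to 43843986) had 5.29, 5.14 and 3.03 CPM in the B6 libraries, against 16.1, 15.3 and 11.9 CPM in the BALB/c libraries. Those values rest on 48, 51 and 27 reads in B6, against 166, 130 and 119 reads in BALB/c. The strains were well apart, with the lowest BALB/c library above the highest B6 library.

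Mean levels ± SD of Bst1 were 4.48 ± 1.26 CPM for B6 and 14.4 ± 2.21 CPM for BALB/c (n = 3 each), 3.22-fold higher in BALB/c. The log2(CPM + 1) scale makes the change of so low a gene look smaller, and there the fold was -1.51 ± 0.28 (SE, adjusted p = 6.995e-04 in limma). It kept its call under all 17 alternative settings, with limma adjusted p up to 0.0164. Its exons overlap those of Fbxl5 at the opposite end from the one that QuantSeq reads, 22348 bases away, and Fbxl5 had a log2 fold of -0.31 (adjusted p = 0.210 in limma). Of the words of 50 bases from its last 300 bases, 7.84% also occur in other genes.

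Of 4 immune markers, 2 were lower in B6, as was Bst1. The summed level of the 4 (Ptprc, Csf1r, Cd74 and Lyz2) was 131.4 to 153.8 CPM in B6, against 228.1 to 254.8 CPM in BALB/c. Csf1r and Lyz2 were the called pair. Without Csf1r the sums overlapped, with 70.4, 77.9 and 99.8 CPM in B6, against 151.9, 119.5 and 95.3 CPM in BALB/c. None of the 4 was at 0 in any library, and their part in the Bst1 result was not tested. Cd38, the relative of Bst1 that lies next to it on chromosome 5, averaged 4.39 ± 0.562 CPM for B6 and 4.63 ± 1.08 CPM for BALB/c (SD, n = 3 each), with a log2 fold of -0.05 (adjusted p = 0.954 in limma).

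Ppp1r1a and Ptger3 did not pass the test. Ppp1r1a (chromosome 15, 103530279 to 103538003), which encodes inhibitor 1 of protein phosphatase 1, had 221.1, 297.6 and 201.4 CPM in the B6 libraries, against 213.8, 223.4 and 190.6 CPM in the BALB/c libraries. Its log2 fold was 0.18 ± 0.12 (SE, adjusted p = 0.420 in limma), and 0.02 without B6 replicate 2. Without that library the strains lay almost level.

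Ptger3 (chromosome 3, 157566892 to 157645888) encodes the prostaglandin E2 receptor EP3, through which prostaglandin E2 lowers salt uptake in the segment. It had 32.0, 58.5 and 22.2 CPM in the B6 libraries, against 31.7, 48.4 and 39.7 CPM in the BALB/c libraries. No other member varied as much within a strain, with a 2.63-fold range in B6 and a 1.53-fold range in BALB/c. The log2 fold was -0.17 ± 0.23 (SE, adjusted p = 0.738 in limma), -0.54 without B6 replicate 2 and 0.14 without B6 replicate 3, and -0.03 without BALB/c replicate 2.

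**Figure D2:**
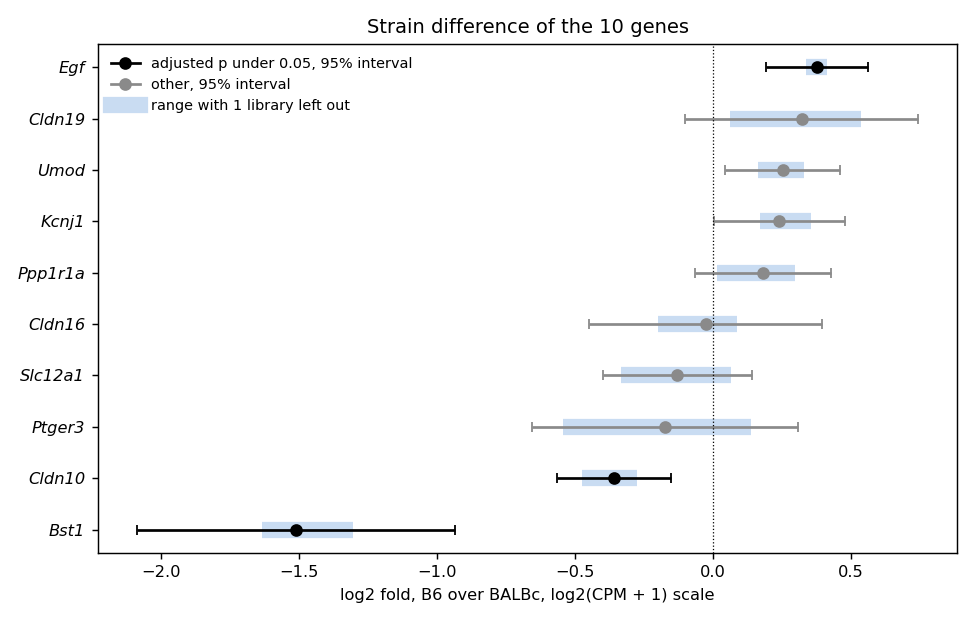
Log2 fold of B6 over BALB/c for each member (horizontal axis) with its 95% interval from limma, black where the adjusted p is under 0.05, and the range of the fold when 1 library is left out as a blue bar. Egf lies above 0 and Cldn10 and Bst1 below, while the blue bars of Slc12a1, Cldn16 and Ptger3 cross 0.

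Within B6, most members were ordered alike. B6 replicate 2 was the highest B6 library for 8 of the 10 members, all but Cldn10 and Bst1, and B6 replicate 3 the lowest for 9, all but Cldn10. How often these libraries were highest or lowest over all genes was not counted, so the order may not be particular to the members. Ptger3 deviated most, by 0.74 above the strain mean in B6 replicate 2 and 0.62 below it in B6 replicate 3, on the log2 scale. Slc12a1 deviated by 0.41 above and 0.39 below, and Egf by only 0.08 above and 0.07 below. Cldn10 was lowest in B6 replicate 2.

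The BALB/c libraries showed no such order, as replicates 1, 2 and 3 were highest for 4, 5 and 1 of the members. The standard deviation on the log2 scale was larger in B6 for 9 of the 10 members, against 6900 of the 13317 genes tested. The median standard deviation of the members was 0.30 in B6 and 0.13 in BALB/c, while over all genes it was 0.21 in B6 and 0.20 in BALB/c. Thin limb markers followed the order of the members in B6, with sums of 992.7, 1096 and 805.3 CPM in replicates 1, 2 and 3, against 1035, 956.2 and 1002 CPM in BALB/c. Aqp1 carried 87.3% of them, and the other 4 summed to 137.4, 189.9 and 90.7 CPM in B6, against 98.9, 100.3 and 129.5 CPM in BALB/c. The part of such marker differences in the order of the members was not tested.

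**Figure D3:**
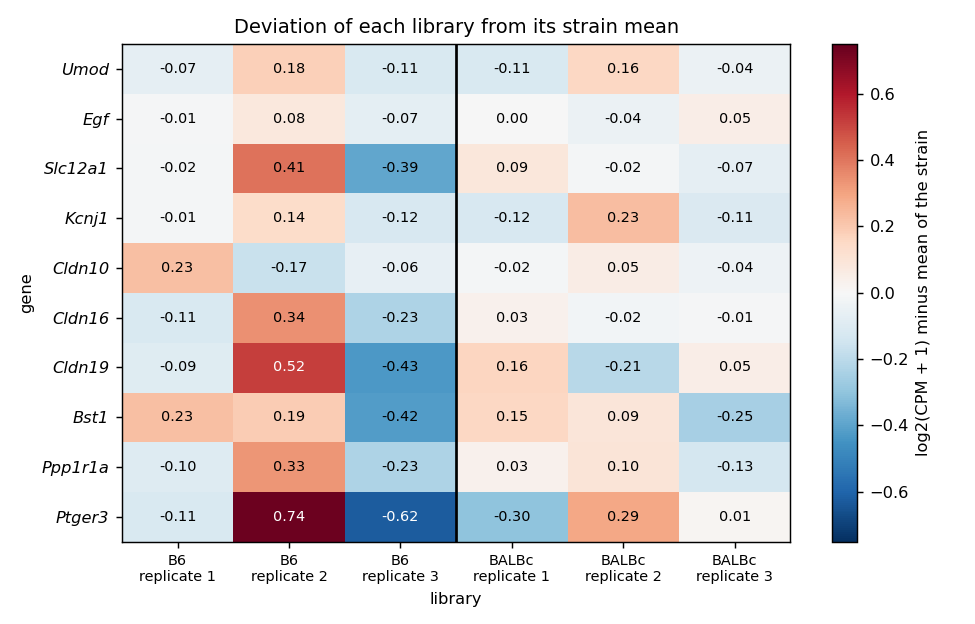
Deviation of each library (columns, B6 left of BALB/c) from the mean of its strain for each member (rows), as log2(CPM + 1), with red above and blue below the mean. B6 replicate 2 is above its mean in all members but Cldn10, B6 replicate 3 is below its mean in all 10, and Ptger3 has the widest spread.

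Around the members, 71 other genes of the pathway were grouped by role. Of the 64 that passed the filter, 4 were higher and 4 lower in B6, against 9.09% called over all genes, and their median log2 fold was 0.08. Without B6 replicate 1 or BALB/c replicate 1 3 genes were called. The number was also 3 when every gene with at least 1 read was tested, and 2 under a variance prior that had no trend. Of the 10 partners of salt transport, 3 were higher, 1 was lower and 6 did not pass the test.

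Bsnd, which encodes barttin, a subunit that chloride channels of the basolateral membrane need to reach the cell surface, was higher in B6. It had 30.2, 34.6 and 27.7 CPM in the B6 libraries, against 20.5, 21.3 and 19.3 CPM in BALB/c, a log2 fold of 0.57 ± 0.17 (SE, adjusted p = 0.0390 in limma). The libraries of the strains did not overlap. The call depended on the settings and was lost in 10 of 17 alternatives, among them each fit with 1 library left out except B6 replicate 3, with limma adjusted p up to 0.148. The gene is also expressed in the distal convoluted tubule and in intercalated cells. The 5 intercalated cell markers, none of them called, summed to 355.3 to 389.6 CPM in B6, against 328.5 to 403.7 CPM in BALB/c.

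The potassium channel subunit genes Kcnj10 and Kcnj16, whose products join in the basolateral membrane of the distal nephron, went in opposite directions. Kcnj16 had 683.5, 645.3 and 704.3 CPM in the B6 libraries, against 1011, 984.7 and 995.0 CPM in BALB/c, a log2 fold of -0.56 ± 0.08 (SE, adjusted p = 7.80e-05 in limma). Kcnj10 had 37.0, 40.6 and 41.4 CPM in the B6 libraries, against 20.1, 28.2 and 32.0 CPM in BALB/c, a log2 fold of 0.57 ± 0.17 (SE, adjusted p = 0.0375 in limma). The libraries did not overlap in either gene. Kcnj16 lost its call in 1 of 17 alternative settings, the prior with no trend. Kcnj10 lost it in 9, among them each fit with 1 library left out except BALB/c replicate 3, with limma adjusted p up to 0.219. In the distal convoluted tubule list, 3 of 5 markers were called higher in B6 (Slc12a3, Calb1 and Slc8a1) and Pvalb lower, with a summed level of 1055 to 1242 CPM in B6, against 868.2 to 931.9 CPM in BALB/c. In the proximal tubule list, Slc7a13 was called higher and Slc5a12 lower in B6. In whole kidney, Kcnj10 and Kcnj16 need not be read from the same cells. The part of either segment in these differences was not tested.

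Of the 11 tested regulators of the cotransporter, 0 were higher and 1 was lower in B6. Oxsr1, a kinase that phosphorylates NKCC2 and the thiazide-sensitive cotransporter, had 11.6, 10.4 and 13.6 CPM in the B6 libraries, against 19.1, 25.2 and 26.9 CPM in BALB/c. Its log2 fold was -0.94 ± 0.21 (SE, adjusted p = 0.00481 in limma), and it kept its call under all 17 settings. Its relative Stk39, which encodes the kinase SPAK, had a log2 fold of 0.14 (adjusted p = 0.688 in limma), and Wnk1, the gene of this list with the highest CPM, had 0.17 (adjusted p = 0.257 in limma). Klhl3 was listed at 0 in all libraries.

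Egfr, the receptor of epidermal growth factor, was higher in B6, as was Egf. It had 23.3, 25.5 and 16.3 CPM in the B6 libraries, against 7.36, 9.43 and 11.5 CPM in BALB/c, with no overlap. This gave a log2 fold of 1.12 ± 0.24 (SE, adjusted p = 0.00286 in limma), a call kept under all 17 settings. Of its 4 tested list members it alone passed the test. Trpm6, the magnesium channel that epidermal growth factor regulates, had a log2 fold of -0.003 (adjusted p = 0.997 in limma), and Trpm7, which had the highest CPM of that list, had 0.08 (adjusted p = 0.788 in limma).

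Of 6 tested genes for hormone receptors and adenylyl cyclase, 1 was lower in B6. Adora1, the adenosine A1 receptor, which takes part in the feedback between the macula densa and the glomerulus, had 6.82, 13.0 and 3.70 CPM in the B6 libraries, against 24.2, 12.9 and 16.9 CPM in BALB/c. This corresponds to a log2 fold of -1.20 ± 0.32 (SE, adjusted p = 0.0170 in limma). B6 replicate 2 reached the lowest BALB/c library, and exons of Adora1 overlap those of Mybph. The call ended in 5 of 17 settings, among them those that left out replicate 1 of either strain or B6 replicate 3, with limma adjusted p up to 0.176. Casr, the calcium-sensing receptor of the segment, had -0.14 (adjusted p = 0.841 in limma), and Pth1r, which had the highest CPM of the list, had 0.10 (adjusted p = 0.606 in limma).

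Among 7 transcription factors of the segment, 1 was lower in B6. Irx1, a homeobox gene, had 29.6, 46.6 and 31.6 CPM in the B6 libraries, against 56.3, 52.7 and 50.2 CPM in BALB/c, without overlap. Its log2 fold was -0.58 ± 0.16 (SE, adjusted p = 0.0232 in limma), and the call ended in 6 of 17 settings, among them those that left out replicate 1 of either strain, B6 replicate 3 or BALB/c replicate 2, with limma adjusted p up to 0.169. Pou3f3, which had the highest CPM of them, had -0.27 (adjusted p = 0.120 in limma).

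No call was made in the remaining lists. These were 7 other tight junction genes, 6 tested prostaglandin genes, 2 tested genes related to uromodulin, 6 genes of protein phosphatase 1 and its inhibitors, Cd38, and 4 other tested markers of the segment and the macula densa. The genes with the highest CPM in each were Cldn8, with a log2 fold of 0.04, Ptges3 with 0.19, Hpn, the protease that releases uromodulin, with -0.19, Ppp1ca with 0.19, and Wfdc15b with -0.15. Their limma adjusted p lay at 0.942, 0.254, 0.511, 0.379 and 0.377 in that order. Calcr, Erbb3, Klhl3, Nos1, Ptger2, Ptgs2 and Umodl1 did not pass the filter on low values.

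**Figure D4:**
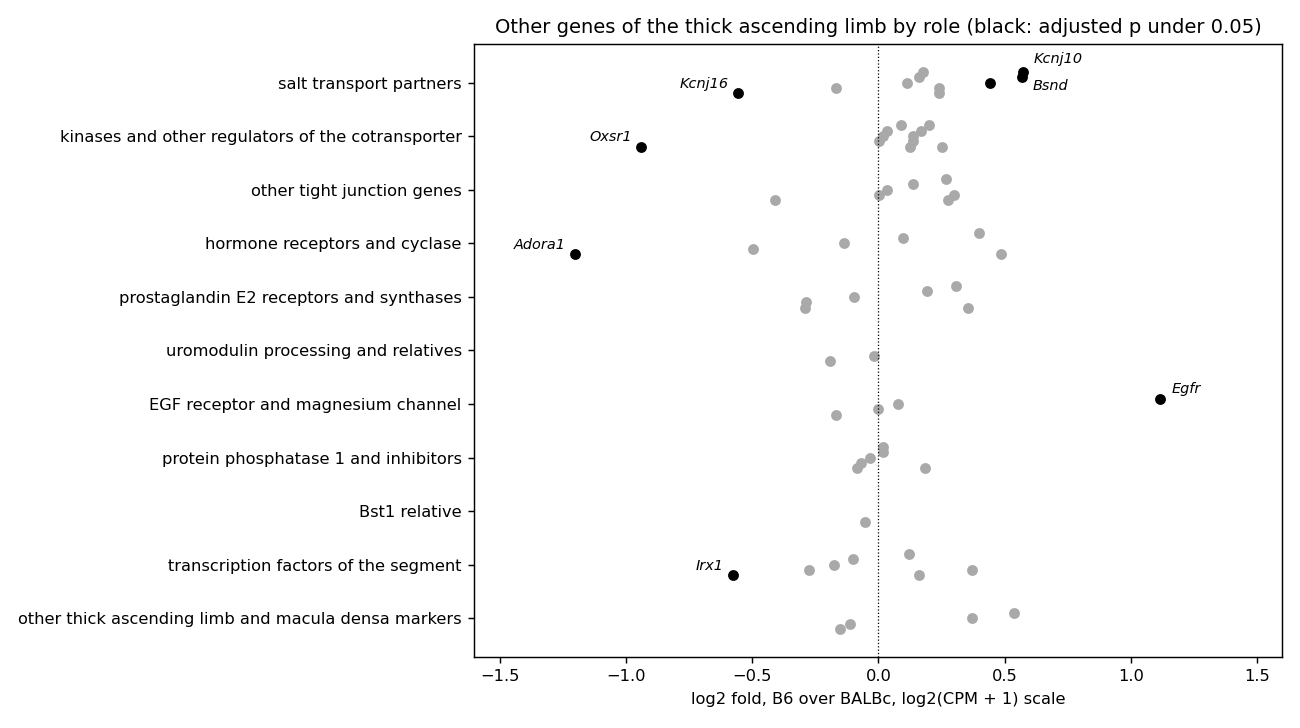
Log2 fold of B6 over BALB/c (horizontal axis) for the 64 tested pathway genes that are not members, in rows by role, with called genes black and all but 1 of them named. The 8 called genes lie on both sides of 0, with Bsnd, Kcnj10 and Egfr among those higher and Kcnj16, Oxsr1, Adora1 and Irx1 lower in B6.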

How the data were processed

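Trizol extraction and a Lexogen QuantSeq kit were used, per the labels' protocols. Bowtie2, bedtools and the build mm10 are named in the submitters' processing notes. The sources used here give no versions, annotation or use of strand. Values were deposited as log2, 1 per row and library. From the values they are log2(CPM + 1) with a further scaling factor per library: within 0.1 read, 100% of the values at 20 reads or fewer came out whole once divided by 1 step, which gave the read numbers. The 79 rows on 35 shared symbols, none of them members, were kept apart.

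Genes with a log2 value of at least 1 in at least 3 libraries were fitted with limma 3.58.1 in R 4.3.3 on all 13317 such genes, with strain as the sole term and a variance prior with a trend, which contributed 18.4 degrees of freedom beside 4 residual ones. The limma tests were two-sided and adjusted after Benjamini-Hochberg over these genes. The design assumed counts or log2 values, and the latter applied. The script was tested on simulated data. Positions and exon overlaps come from GENCODE M21. The members and lists were chosen with earlier results of these data known. Named are all members, every called gene of the lists, the most abundant gene of each list and exon-overlapping genes; other genes were chosen after their values were seen. A few genes that this rule names are counted with their lists but not reported here. The series text gives 3 mice per strain. Replicate numbers were not used to pair the libraries, because nothing says that a number marks a shared batch. The closing section gives the alternatives tried.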

Additional observations from a re-analysis of the deposited data

How the results depend on the processing

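Bst1, Umod, Kcnj1, Cldn19 and Ppp1r1a kept their direction and their side of the threshold under all 17 alternatives. With no trend in the variance prior, 493 genes in all, 1 member (Bst1) and 2 other pathway genes were called, against 1211, 3 and 8, and Egf (0.38, limma adjusted p = 0.157) and Cldn10 (-0.36, limma adjusted p = 0.248) lost their calls. With no filter beyond 1 read 3 other pathway genes were called and Cldn10 lost its call (-0.36, limma adjusted p = 0.0804). Leaving out 1 library gave between 777 and 1125 calls over all genes, 2 or 3 among the members and 3 to 7 among the other pathway genes. The log2 fold then lay between -0.33 and 0.066 for Slc12a1, -0.20 and 0.088 for Cldn16, -0.54 and 0.14 for Ptger3, and -0.47 and -0.28 for Cldn10. The cause was not tested. Scaling to total reads, the upper quartile or the median ratio, limma-voom on recovered reads, a robust prior, a mean of at least 5 CPM and pseudocounts of 0.25 or 5 CPM left the 3 members called. A replicate block gave 977 calls over all genes and the same 3 members. Deviations of libraries with the same number correlated at 0.0115, -0.057 and -0.0844. No strong shift shared by number was seen, but these values cannot exclude a batch shared by number. The differences between members' folds kept their sign with other pseudocounts or 1 library left out, alternatives chosen after seeing the data, but not their size: with 1 library left out they lay between -0.18 and -0.02 for Umod over Egf, 0.24 and 0.49 for Umod over Slc12a1, -0.50 and -0.23 for Slc12a1 over Kcnj1, -0.50 and -0.08 for Cldn10 over Cldn16, -0.87 and -0.34 for Cldn10 over Cldn19, and -0.45 and -0.25 for Cldn16 over Cldn19. The fold of Umod lay between 0.16 and 0.33. Depth limits Bst1, Cldn16 and Cldn19 most.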
